A study of Mus musculus with 3 samples.

Results

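Interferon response genes are the genes that cells switch on when an interferon, a secreted antiviral signal, binds its receptor. Here 38 of them were followed in mouse LSK cells, the lineage marker-negative, Sca-1-positive and Kit-positive bone marrow fraction in which blood stem cells and early progenitors are found. They were listed by name, with earlier results of these data known, as classical interferon-induced genes with the IRF and STAT factors that drive them. Each was represented by its brightest probe set over the 3 arrays. Of the 38 genes, 36 had a probe set annotated to them alone, out of 18194 such genes on the array. A gene counted as measured when its signal reached the median of all signals (110.4, the floor) on at least 1 array, which held for 34 of the 36 and for 12597 genes in all. Zbp1, a sensor of Z-form nucleic acid, and the GTPase gene Mx2 stayed under the floor on all 3 arrays. The probe set of Isg15 was annotated to several genes and was not used, and no probe set was annotated to Ifi44 in the table used.

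Each array came from a different genotype: wild-type cells (WT), cells from p53-/- mice (p53 KO), and cells from mice that lacked both p53 and Mef (DKO), the latter an ETS factor encoded by Elf4. Absence of p53 is thus common to both mutants, and Mef loss was examined only on that background. Strain, age, sex and the number of animals pooled for each array are not given in the sources used here. With 1 array per genotype there was no replicate, so every difference compares a pair of arrays, carries no error and was not tested.

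Interferons signal through receptor-bound JAK kinases. Type I interferons lead to a complex with STAT2 and IRF9 that binds the interferon-stimulated response element (ISRE), and interferon gamma acts through a different site, GAS. The induced proteins destroy viral RNA, block entry or translation, or sense nucleic acid and so feed the loop. In haematopoietic stem cells, type I interferon is known to push dormant cells into cycle, and IRF2, which opposes the response, is known to protect them from exhaustion. p53 is known to act on several genes of this response, and Mef is known to take part in the induction of type I interferon.

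As a check of the labelled cell type, all 12 LSK markers with a named probe set reached the floor on every array, with Kit at 4996 on WT, 2522 on p53 KO and 4873 on DKO. Sca-1 (Ly6a) was not analysed here. Genes listed as markers of blood lineages were present as well: 14 of 14 granulocyte genes and 11 of 11 B cell genes were at the floor or over on every array. Elf4 read 57.4 on WT, 182 on p53 KO and 151 on DKO by its brightest probe set and 74.3, 173 and 129 by the other. On the array labelled as lacking Mef, Elf4 was thus higher than on WT, where both probe sets were under the floor. Elf4 was lower on DKO than on p53 KO by both probe sets, though still over the floor. The labels do not say whether the deletion covers these probe sets. p53 was not analysed here. DKO below means the array with that label, and every direction drawn from it rests on the label. Median signal over all 45101 probe sets ran from 98.0 on WT to 129 on DKO.

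The p53 KO array was set against the WT array to ask what absence of p53 changes in this response. A few interferon genes were much higher without p53 while most sat close to their WT level. Rsad2 and Ifi27l2a were over 4-fold higher, and Oasl2, Oas1a and Ifitm1 were 2.04- to 3.67-fold higher. The IFIT genes and the IRF factors among the 34 measured genes were not, while other IRF factors are given further below. In all, 5 of the 34 measured genes (14.7%) were at least 2-fold higher, against 6.51% of all measured genes, and 0 were at least 2-fold lower, against 3.19%. Because the genes were chosen with earlier results of these data known, the choice itself may raise such a share. Their median log2 difference was 0.27, with 26 genes above zero and 8 below, and the median of all measured genes was 0.00. On the p53 KO array, 20 of the 34 had their highest signal of the 3 arrays, whereas that array held the highest signal for 28.9% of all measured genes.

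**Figure D1:**
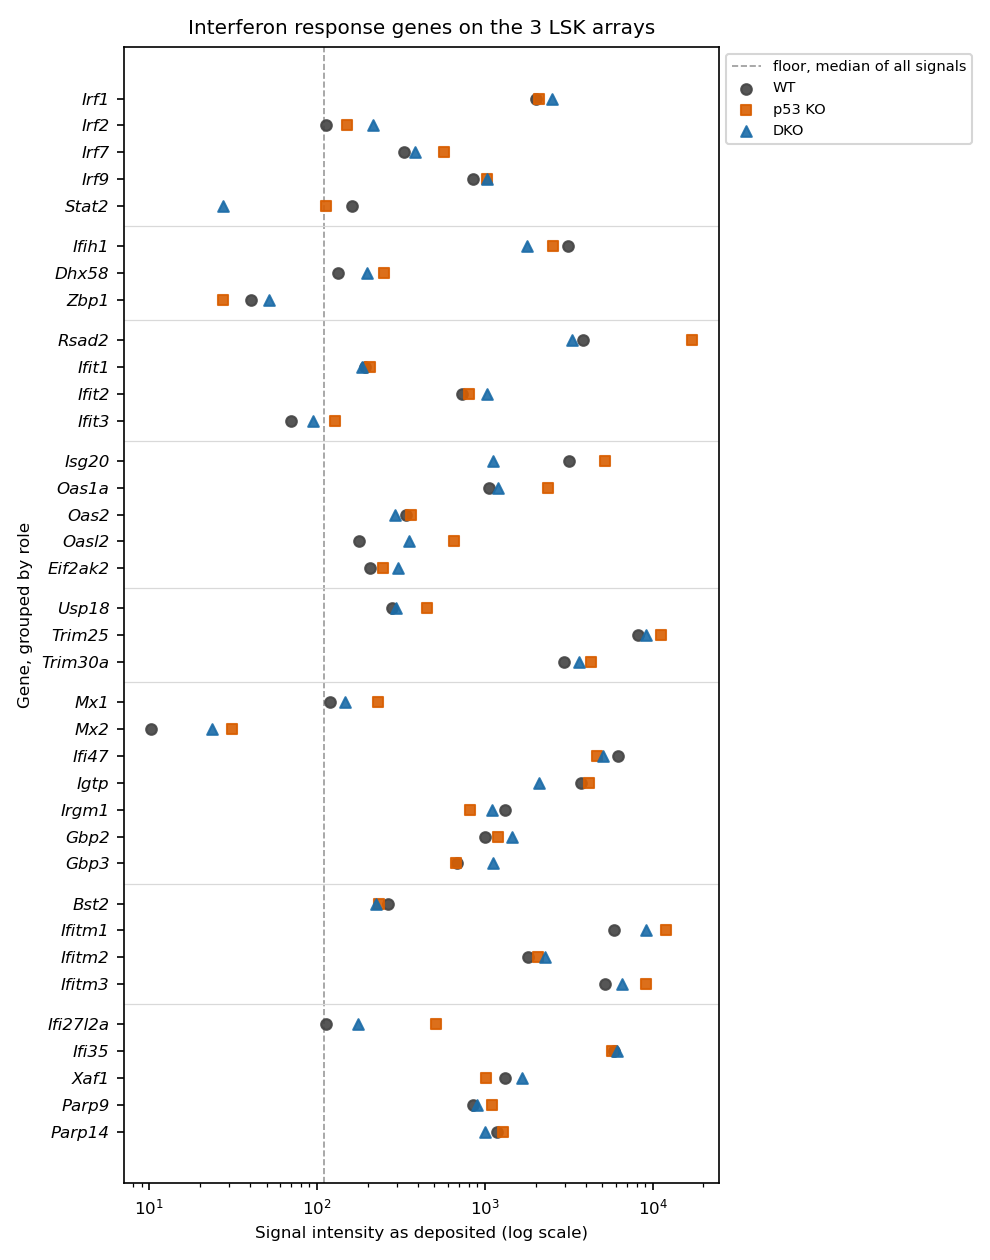
Signal intensity as deposited (log axis) of the 36 interferon response genes with a probe set of their own, grouped by role, 1 point for each genotype (WT, p53 KO, DKO); the dashed line is the floor of 110.4. The p53 KO point of Rsad2 stands at 17019, far to the right of WT and DKO, while the points of Ifit1, Ifi35 and Irf9 nearly coincide.

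Rsad2 encodes viperin, an enzyme that makes a nucleotide which ends viral RNA chains. WT cells gave a signal of 3855, p53 KO cells 17019 and DKO cells 3308. Only the p53 KO array was high, at a log2 difference of 2.14 from WT (4.41-fold), while DKO was close to WT (-0.22). Both other probe sets of Rsad2 showed the same order, at 507, 2986 and 338 and at 85.2, 466 and 112 on WT, p53 KO and DKO. Their log2 differences for p53 KO against WT were 2.56 and 2.08.

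The IFIT genes, which encode proteins that bind foreign RNA and block its translation, did not share this pattern. Ifit1 had signals of 193, 206 and 185 on WT, p53 KO and DKO, a log2 difference of 0.10 for p53 KO against WT. Ifit2 had signals of 734, 798 and 1026, highest on DKO. Ifit3 passed the floor only on the p53 KO array (69.8, 127 and 93.9), where it was higher than WT by at least 0.21. All 3 therefore stayed within 2-fold across the arrays at this floor, although Ifit2, Ifit3 and Ifit1 lie close together in the RefSeq gene order and are among the genes that interferon induces most reliably.

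The oligoadenylate synthetases sense double-stranded RNA and make the messenger that activates the ribonuclease RNase L. Oas1a had signals of 1056 on WT, 2372 on p53 KO and 1192 on DKO, again with p53 KO alone high (log2 difference 1.17). Oasl2, a related gene, had signals of 178, 653 and 355, so that both mutants were above WT (1.88 for p53 KO and 0.99 for DKO, just short of 2-fold). With the floor raised to the 75th percentile of signals (448.4), WT lay under it and the Oasl2 difference for p53 KO was bounded at no less than 0.54. Oas2 was flat by comparison, at 336, 363 and 292. Among relatives outside the list, Oas3 had signals of 219, 469 and 203 (1.10), whereas Oasl1 ran lower on p53 KO, at 354, 184 and 246 (-0.94). Oas1b had 224, 292 and 138 (0.38), and Oas1c had 138.5, 212.9 and 154.0 (0.62). These relatives were named after their values were seen.

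Isg20, an exonuclease that degrades RNA, had signals of 3142 on WT, 5187 on p53 KO and 1116 on DKO. Unlike the genes above, it was set apart by a low DKO array. Eif2ak2, the kinase PKR that stops translation on sensing double-stranded RNA, had signals of 207, 248 and 301.

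Of the membrane proteins that stop virus entry, Ifitm1 had signals of 5870, 12001 and 9076 on WT, p53 KO and DKO, with log2 differences from WT of 1.03 and 0.63. Ifitm3 was 1.75-fold higher on p53 KO than on WT, at 5164, 9049 and 6574 (0.81). Ifitm2 lies next to Ifitm1 in the gene order, yet its signals were 1793, 2067 and 2274 (0.20). Bst2, which encodes the tetherin that holds budding virus at the cell surface, had signals of 266, 232 and 224. WT was lowest for all 3 Ifitm genes and highest for Bst2.

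Ifi27l2a, a small interferon-induced protein of the ISG12 family, had signals of 112 on WT, 510 on p53 KO and 175 on DKO. Its WT signal was almost at the floor, and its log2 difference for p53 KO against WT was 2.18. With the floor at 448.4, WT and DKO fell under it and the bound was at least 0.19. No second probe set was there to set beside it.

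To show what the response elements of these genes look like, the promoter windows of RefSeq (GRCm38.p6) were searched over the 250 bases before the transcript start for the ISRE core, spelled GAAA, any 2 bases, GAAA, on both strands, counting overlapping matches. A window was found for 29 of the 38 genes, and 14 of those (48.3%) held at least 1 match, against 3.46% of all 27025 genes with a window. The stretches around the matches are printed below for genes that were at least 2-fold apart in some comparison (Rsad2, Oas1a and Igtp), for Ifit1 and Ifit3, which were not, and for Irgm1, which was lower on p53 KO. Each is written in the direction of its gene, in lower case with the matches in capitals; a match on the other strand reads TTTC, any 2 bases, TTTC. They lie at chr12:26456548-26456587 (Rsad2, minus strand), chr5:120907526-120907560 (Oas1a, minus), chr11:58199507-58199546 (Igtp, plus), chr19:34640770-34640828 (Ifit1, plus), chr19:34583358-34583431 (Ifit3, plus) and chr11:48871421-48871465 (Irgm1, minus).
Rsad2: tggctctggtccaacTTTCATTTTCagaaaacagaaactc
Oas1a: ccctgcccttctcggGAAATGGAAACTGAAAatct
Igtp: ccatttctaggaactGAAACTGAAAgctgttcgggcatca
Ifit1: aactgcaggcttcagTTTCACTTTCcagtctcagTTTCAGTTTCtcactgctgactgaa
Ifit3: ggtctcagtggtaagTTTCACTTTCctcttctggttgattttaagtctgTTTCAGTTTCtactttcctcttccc
Irgm1: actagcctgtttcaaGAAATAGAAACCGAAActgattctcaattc

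Rsad2 held 1 match and was 4.41-fold higher on p53 KO, while Ifit1 and Ifit3 held 2 separate matches each and stayed within 2-fold. Oas1a and Irgm1 each held 2 overlapping matches, and their differences for p53 KO against WT were of opposite sign (1.17 and -0.70). Of the 5 genes at least 2-fold higher, 4 had a window, and 2 of these held the core; of the other 23 measured genes with a window, 11 did. The median log2 difference for p53 KO against WT was 0.20 over the 13 measured genes with the core and 0.27 over the 14 without it. The core was thus found among genes that were higher and among genes that were not. Ifi27l2a, also at least 2-fold higher, had no window, and an element spelled otherwise or lying outside the window would not be counted. Whether presence of the core goes with a higher signal on p53 KO was not tested. The GAS letters, TTC, any 3 bases, GAA, were in the window of 8 of the 29 genes (27.6%), among them Irf1, Isg20 and Igtp, against 8.13% of all genes, and 1 of the 8 matches overlapped an ISRE core. These are matches of letters in a window and do not show that a factor bound there.

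The transcription factors among the 38 genes were all within 2-fold on every pair of arrays at this floor. Irf1, an activator, was nearly level at 2009, 2100 and 2522 on WT, p53 KO and DKO. Its antagonist Irf2 was close to the floor and ordered WT, p53 KO, DKO at 112, 151 and 215, the DKO array being 0.94 above WT. Irf7, which amplifies type I interferon production, had signals of 331, 571 and 382, with p53 KO high (0.79). Irf9 had signals of 848, 1025 and 1024, both mutants being 0.27 above WT. Stat2, the partner of Irf9, was dim at 162, 113 and 27.5, and on DKO its log2 difference from WT was -0.56 or lower. With the floor at the 25th percentile of signals, where its DKO signal still lies below, Stat2 passed 2-fold on DKO against both other arrays.

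The RNA sensors differed from each other. Ifih1, which encodes MDA5, the sensor of long double-stranded RNA, had signals of 3132, 2533 and 1780 on WT, p53 KO and DKO, so that DKO was 0.82 below WT on the log2 scale. Dhx58 encodes LGP2, a helicase that modulates MDA5, and had signals of 134, 249 and 198. Its log2 difference of 0.90 for p53 KO was not seen in its other measured probe set (-0.07).

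By their brightest probe sets, genes of the ISG15 system and the TRIM ubiquitin ligases were modestly highest on p53 KO. Usp18, which strips ISG15 from proteins and damps the receptor, had signals of 279, 454 and 294 (0.71 for p53 KO against WT). Trim25, a ligase that aids RNA sensing, had signals of 8198, 11205 and 9123 (0.45), and Trim30a had 2937, 4305 and 3608 (0.55). Other probe sets differed: one of Trim30a read 726, 965 and 1128, highest on DKO, and of the other 2 of Trim25 one read 3667, 4795 and 4274 and one 192, 165 and 150, highest on WT. None of the 3 genes reached 2-fold in any comparison.

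The interferon-induced GTPases went in several directions. Mx1, known for blocking influenza virus, had signals of 119, 229 and 147, just short of 2-fold on p53 KO (0.94). Irgm1, an immunity-related GTPase that is known to be needed for stem cell maintenance, was lowest on p53 KO at 1323, 814 and 1101 (-0.70), and Ifi47 had the same order of arrays at 6210, 4660 and 5049 (-0.41). Igtp, a close relative of both, was instead set apart by DKO, at 3750, 4173 and 2086. The guanylate-binding proteins attack vacuoles that hold microbes: Gbp2 had signals of 998, 1203 and 1439 and Gbp3 had 679, 672 and 1113. For Gbp3, DKO was thus 0.71 above WT and 0.73 above p53 KO.

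The remaining genes were within 2-fold by their brightest probe sets. Parp9 and Parp14, ADP-ribosylation enzymes induced by interferon, had signals of 853, 1103 and 893 and of 1178, 1281 and 1001. Ifi35 had 5827, 5675 and 6129 (-0.04 for p53 KO against WT), while its other probe sets gave -0.61 and 0.35. Xaf1, which opposes an inhibitor of apoptosis, was ambiguous: its brightest probe set read 1313, 1015 and 1668 (-0.37 for p53 KO against WT) and its other probe set read 151, 336 and 131 (1.16).

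**Figure D2:**
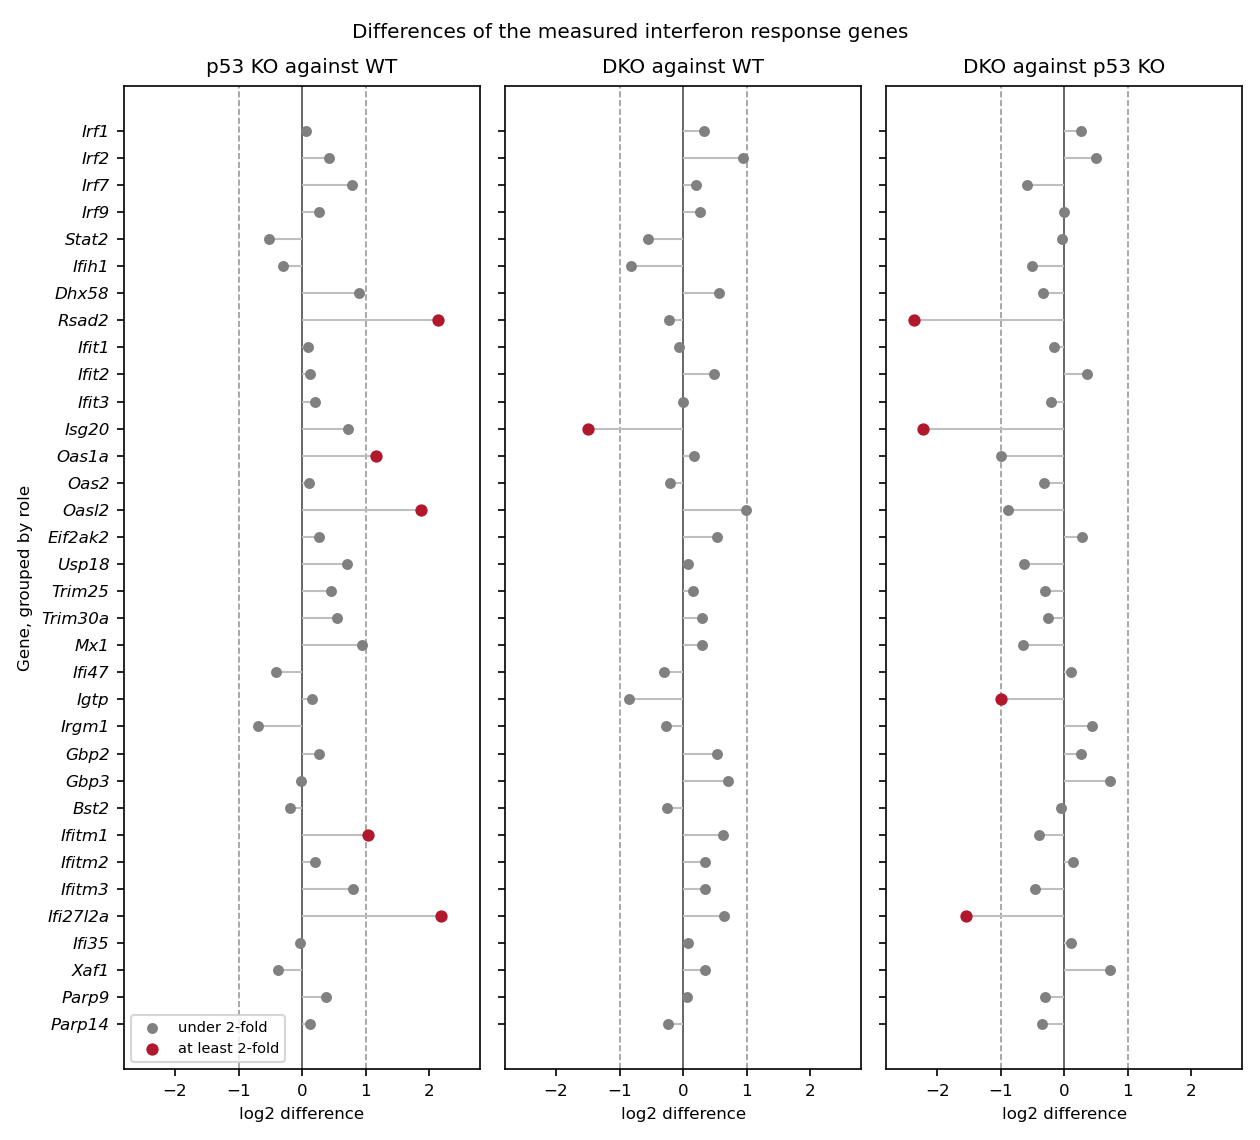
Log2 difference of each of the 34 measured interferon response genes, grouped by role, in 3 panels (p53 KO minus WT, DKO minus WT, DKO minus p53 KO); dashed lines mark 2-fold, and red points are at least 2-fold apart. The red points of the first panel are Rsad2, Oas1a, Oasl2, Ifitm1 and Ifi27l2a, and the second panel holds Isg20 alone.

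The array labelled DKO was set against the WT array to ask what combined absence of p53 and Mef changes, although Elf4 was higher on it than on WT. Interferon genes were close to their WT level as a group: 0 of 34 were at least 2-fold higher, against 5.22% of all measured genes, and 1 (2.94%) was at least 2-fold lower, against 3.1%. The lower gene was Isg20, at 1116 against 3142 (log2 difference -1.49). The nearest to 2-fold on the higher side were Oasl2 (0.99) and Irf2 (0.94). On the lower side Ifih1 was at -0.82 and Igtp at -0.85. Stat2, bounded here at -0.56, was at -2.24 or lower with the floor at the 25th percentile. It was at -1.71 with 32 added to each signal in place of a floor. Both values lie below those of Isg20 in the same settings. The median was 0.19, with 22 genes above zero and 11 below, and that of all measured genes was 0.07. Among all genes the split of 657 higher and 390 lower was 463 and 475 after quantile normalization, while the interferon genes stayed at 0 and 1.

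DKO against p53 KO asks, by the labels, what Mef loss changes on the p53-null background. Here 0 of the 34 genes were at least 2-fold higher, against 4.1% of all measured genes, and 4 (11.8%) were at least 2-fold lower, against 5.93%. These were Rsad2 (-2.36, 5.14-fold lower), Isg20 (-2.22), Ifi27l2a (-1.54) and Igtp (-1.001), the last barely past the threshold and under it (-0.93 to -0.99) in 2 of 7 alternative settings. Oas1a (-0.99) was just outside. The median was -0.28, with 23 genes below zero and 11 above, against 0.11 for all measured genes. This comparison shares the p53 KO array with the first, so a gene that was high on that array alone, such as Rsad2, is counted in both. Of all measured genes 517 were higher and 747 lower, or 304 and 855 (7.02%) after cyclic loess. That setting put 6 of the 34 interferon genes on the lower side and moved the median of all genes from 0.11 to 0.01.

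Genes listed as markers of blood cell lineages moved on the same arrays. The summed signal of 12 monocyte genes was 27378 on WT, 73686 on p53 KO and 27061 on DKO, and all 12 were above WT on p53 KO. For 11 B cell genes it was 2768, 10834 and 4030, again with all 11 above WT on p53 KO, and for 14 granulocyte genes it was 141848, 252355 and 135521. These sums, like Rsad2 and Oas1a, were highest on p53 KO. Within the granulocyte list, Elane (800, 1719 and 2308), Ctsg (5071, 10135 and 14770), Mpo (14665, 27108 and 27120) and Prtn3 (5508, 10581 and 11025) were instead highest on DKO, genes named after their values were seen. The erythroid sum was 101879, 115177 and 25894, low on DKO as Isg20 was. On p53 KO its genes were split, 5 above WT and 6 below. They ranged from Alas2 (1787, 11459 and 1091) to Car1 (25815, 9638 and 5778). The sums of the other lists were 519, 789 and 740 for T cells, 2045, 3931 and 3803 for NK cells, 5978, 9451 and 10218 for plasmacytoid dendritic cells and 5053, 14078 and 8659 for megakaryocytes. For the LSK markers the sum was 27806, 24597 and 44974, highest on DKO. On WT, p53 KO and DKO, 1, 3 and 2 of 8 T cell genes, 4, 8 and 5 of 9 NK cell genes and 7, 8 and 8 of 9 plasmacytoid dendritic cell genes were at the floor or over. Among them were Spib (283, 1043 and 384), Klrd1 (171, 540 and 333) and Ccl5 (171, 610 and 30.2), named after their values were seen, while Cd3e, Cd3g, Cd4, Cd8b1, Ncr1 and Siglech stayed under the floor on all 3 arrays. Against WT, p53 KO was higher for 7 of 8 measured NK cell genes and lower for Gzmb (300, 220 and 358). It was higher for 5 of the 8 measured plasmacytoid dendritic cell genes. The others were Tcf4 (1903, 1805 and 3478), Klk1 (1122, 830 and 1268) and Bst2, all lower on p53 KO than on WT. In bulk RNA, more cells of a type and more RNA of a gene per cell cannot be told apart. The part of cells of these lineages, early or mature, in these differences was not tested.

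**Figure D3:**
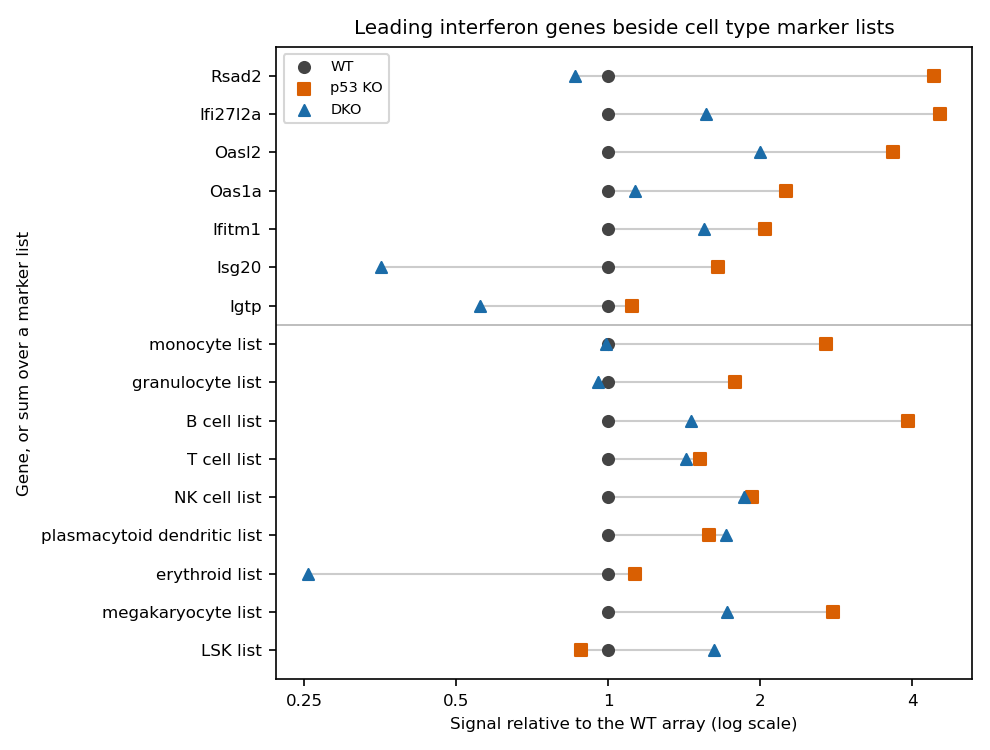
Signal of each genotype relative to WT (log axis), for the 7 interferon genes at least 2-fold apart in some comparison and, below the line, for the summed signal of 9 cell type marker lists. The p53 KO point lies to the right of WT for Rsad2 and for every sum except LSK (0.885 times WT). Those sums run from 1.13 (erythroid) through 2.69 (monocyte) and 2.79 (megakaryocyte) to 3.91 (B cell) times WT. The DKO point lies far to the left for Isg20 and the erythroid sum (0.254 times WT).

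Probe sets of a gene read the same RNA on the same array. Their agreement therefore shows how far probe sets differ and holds no error between animals or arrays. Of the 34 genes, 8 had at least 1 other measured probe set, 12 in all. For p53 KO against WT, 7 of the 12 had the sign of the brightest probe set and 5 the opposite sign, with a median gap of 0.39 on the log2 scale. For DKO against WT the signs matched for 6 of 12 and for DKO against p53 KO for 7 of 12. Both other probe sets of Rsad2, the one gene among the 8 that was at least 2-fold apart, were also at least 2-fold apart in the same direction. Differences smaller than that gap are no larger than the typical disagreement of probe sets.

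**Figure D4:**
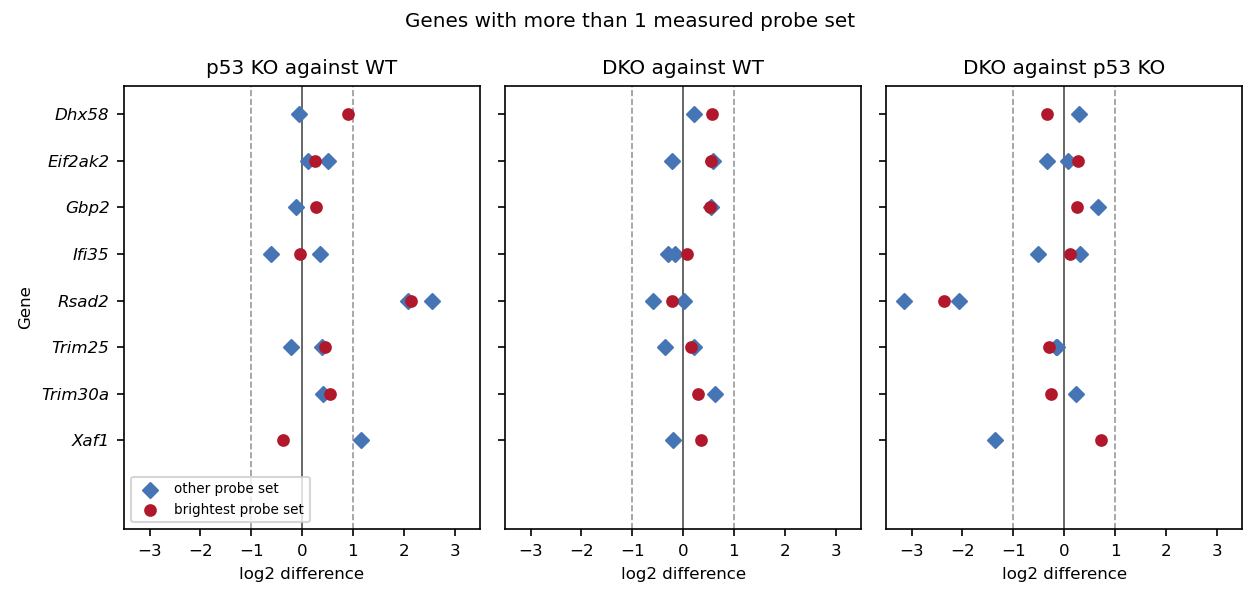
Log2 differences by probe set for the 8 interferon response genes with more than 1 measured probe set; red circles are the brightest probe set used in the text, blue diamonds the others, dashed lines 2-fold. All 3 probe sets of Rsad2 lie together beyond 2-fold in both panels that involve p53 KO, whereas those of Xaf1 lie on opposite sides of zero.

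Other genes of the pathway were listed by name, 145 in 6 lists, of which 108 were measured. These lists too were chosen with earlier results of these data known, which may raise the shares below. For p53 KO against WT 17 (15.7%) passed 2-fold upward and 4 (3.7%) downward, around a median of 0.22. All measured genes stood at 6.51% and 3.19%. For DKO against WT the counts were 7 (6.48%) and 4 (3.7%), near the 5.22% and 3.1% of all measured genes. For DKO against p53 KO they were 4 (3.7%) and 14 of 108, against 4.1% and 5.93%.

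Interferon transcripts themselves were scarcely present. Of 10 interferon genes with a probe set of their own, 7 stayed under the floor on all arrays, Ifng among them. Ifnb1 reached 112 on DKO alone and Ifna2 174 on DKO alone, and Ifnz, a limitin gene, had signals of 263, 155 and 303 on WT, p53 KO and DKO. No interferon gene was over the floor on p53 KO but not on WT.

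Receptor genes were within 2-fold on every pair of arrays except Ifnlr1. Ifnar1 and Ifnar2, the type I receptor chains, had signals of 705, 772 and 881 and of 1207, 1622 and 1152. Ifngr1, the ligand-binding chain for interferon gamma, was lowest on p53 KO at 2526, 1470 and 1953 (-0.78), and its partner Ifngr2 had 276, 384 and 362. Jak1 (1809, 1796 and 1553) and Tyk2 (839, 843 and 789) hardly differed. Ifnlr1, of the lambda interferon receptor, was lowest on DKO at 283, 484 and 157, which is -0.85 against WT and -1.63 against p53 KO. Il10rb, its partner chain, had 872, 1165 and 1332. Socs3, a feedback inhibitor, was the 1 gene of this signalling list at least 2-fold higher on each mutant against WT, at 188, 526 and 638 (1.48 and 1.76). Stat3 was higher on both mutants at 1023, 1709 and 1742. The phosphatase genes Ptpn1 (1830, 2958 and 1802) and Ptpn6 (2809, 4043 and 3355) were highest on p53 KO. Jak2 had 3704, 3709 and 2709, and of the PIAS inhibitors Pias1 had 2307, 2642 and 1739, Pias2 had 591, 602 and 1078 and Pias4 had 562, 404 and 340.

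Among other IRF factors, Irf8, which directs monocyte and dendritic cell fate, had signals of 1798, 4541 and 3816 (1.34 and 1.09 against WT). Irf4, named after its values were seen, was over the floor on p53 KO alone, at 28.3, 341 and 7.04. Irf3, which starts interferon transcription after sensing, had 2261, 1710 and 2340. The IRF2-binding proteins Irf2bp1 (752, 653 and 832) and Irf2bp2 (1693, 1803 and 2452) were within 2-fold.

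Several genes of nucleic acid sensing were higher on both mutant arrays than on WT. Cgas, the sensor of cytosolic DNA, had signals of 2065, 4440 and 4405 on WT, p53 KO and DKO (1.10 and 1.09 against WT). Ddx58, which encodes RIG-I, had 832, 1742 and 1604 (1.07 and 0.95), and Sting1, the adaptor downstream of Cgas, had 349, 616 and 1112 (0.82 and 1.67). Both values of each pair share the WT array. Unc93b1, which carries Toll-like receptors to endosomes, was high on p53 KO alone at 762, 1506 and 770 (-0.97 for DKO against p53 KO). The adaptor genes Myd88 and Mavs had 1051, 1452 and 829 and 1319, 1105 and 1477. Tlr4 on p53 KO (276 against 138) and Tlr9 on DKO (262 against 121), named after their values were seen, had WT signals not far over the floor of 110.4. They completed the 3 of 15 genes (20.0%) at least 2-fold higher against WT in each comparison. The shares of all measured genes were 6.51% for p53 KO and 5.22% for DKO.

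The last list held 63 other measured interferon-induced genes. For p53 KO against WT 11 (17.5%, against 6.51% of all measured genes) were at least 2-fold higher, led by Slfn2 (445, 1744 and 516), Ifitm6 (3342, 11588 and 1648) and the ubiquitin ligase gene Herc6 (248, 768 and 453). The 4 at least 2-fold lower (6.35%, against 3.19%) were Nmi (-1.66), the galectin gene Lgals9 (-1.36), the peptide transporter gene Tap1 (-1.06) and the scramblase gene Plscr1 (-1.05), Tap1 being named after its values were seen. For DKO against WT 2 (3.17%, against 5.22%) were higher and 4 (6.35%, against 3.1%) lower, the latter Plscr1 (-1.54), Nmi (-1.26), Lgals9 (-1.22) and Ifitm6 (-1.02). For DKO against p53 KO 2 (3.17%, against 4.1%) were higher and 12 (19.0%, against 5.93%) were at least 2-fold lower, led by Ifitm6 (-2.81), Irgm2 (-2.20) and Ube2l6, the conjugating enzyme for ISG15 (-2.10). Ifitm6 is a relative of Ifitm1. Irgm2 had signals of 1037, 3041 and 664, against the opposite order on WT and p53 KO for its relative Irgm1.

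**Figure D5:**
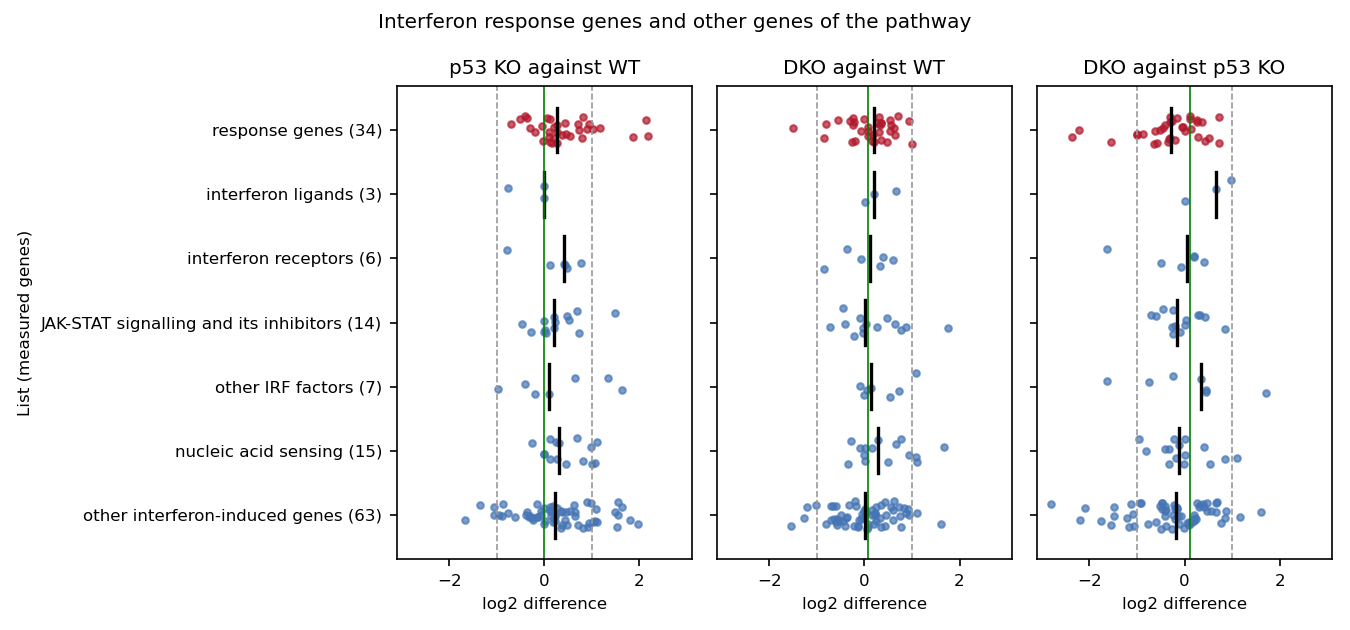
Log2 differences of the 34 interferon response genes (red) and of 6 lists of other pathway genes (blue), 1 point per measured gene with its vertical place within a list random; black bars are list medians, the green line the median of all measured genes, dashed lines 2-fold. On the first panel 17.5% of the 63 other induced genes, 20.0% of the 15 sensing genes and 28.6% of the 7 other IRF factors lie at least 2-fold higher. The share was 7.14% for the signalling list and 6.51% for all measured genes. Points at least 2-fold lower there lie only among the other induced genes (6.35%, against 3.19%), and the receptor and ligand lists hold none beyond 2-fold.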

How the data were processed

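Each of 3 Affymetrix arrays holds RNA of LSK cells of 1 genotype, purified on RNeasy columns and biotin-labelled in a single amplification cycle, per the labels' protocols. The deposited values are linear signal intensities for 45101 probe sets, made with GCOS and MAS5 per the submitters' processing notes; their 2% trimmed mean was 500.0 on each array. Detection calls were not used here.

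Symbols came from the platform annotation, updated through Entrez IDs with RefSeq (GRCm38.p6) for 34754 of the 34958 probe sets with 1 symbol; 932 had several and 9211 none in the table used. Signals under the floor were set to it and log2 was taken. A difference involving an array under the floor is given as "at least". Every interferon response gene is reported. From each other list, up to 4 genes per comparison with the largest difference and a signal of at least 448.4 are named, with set receptor and kinase genes. Any further genes of those lists that are named stand outside this rule. The genes and lists were chosen with earlier results of these data known. Alternatives were made in limma 3.58.1 and Python 3.11.15, and the calculation was tested on simulated data.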

Additional observations from a re-analysis of the deposited data

How the results depend on the processing

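There were 8 alternative settings: quantile normalization, cyclic loess, the mean of all probe sets, a floor at the 25th or 75th percentile, 32 added to each signal in place of a floor, probe sets unique to a transcript (24 interferon genes measured) and a threshold of 1.5-fold. Of 657 values of single genes under the alternatives other than the threshold, 645 stayed on their side of 2-fold, 5 dropped under it, 7 passed it, and 0 changed direction beyond it. Rsad2, Oas1a and Ifitm1 were at least 2-fold higher on p53 KO than on WT in all 7 of these, Rsad2 between 2.13 and 2.26. For p53 KO against WT, 3 of 25 measured genes were at least 2-fold higher with the floor at the 75th percentile (5.30% of all genes). The median was 0.14 with probe sets unique to a transcript. For DKO against WT, 2 of 35 measured genes were at least 2-fold lower with the floor at the 25th percentile (4.58% of all genes). With 32 added it was 2 of 34 (3.56% of all genes), in both cases Stat2 beside Isg20. It was 0 of 24 with unique probe sets (2.94% of all genes), where Isg20 has none. The median was 0.073 with the floor at the 75th percentile and 0.0334 with unique probe sets. At 1.5-fold, 11 genes were higher and 1 lower for p53 KO against WT (15.4% and 12.5% of all genes), 5 and 3 for DKO against WT (17.1% and 9.52% of all genes), and 2 and 8 for DKO against p53 KO (17.0% and 12.2% of all genes). Leaving out an array was not possible with 1 per genotype, and genes near the floor, such as Ifi27l2a on WT, limit what can be compared.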

Other observations

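Interferon-inducible genes outside the list that belong to families showed members apart from each other. Of the Schlafen genes, which restrain lymphoid and myeloid cell growth, Slfn1 (158, 339 and 121 on WT, p53 KO and DKO) and Slfn2 (445, 1744 and 516) were highest on p53 KO. Slfn5 was over the floor on DKO alone (69.8, 68.4 and 336), and Slfn8 was highest there too (621, 622 and 912). Of the guanylate-binding proteins, Gbp8 was over the floor on p53 KO alone (103, 308 and 31.2), as was Gbp6 by little (102.9, 120.7 and 58.9). Gbp7 was level (2738, 3100 and 2597). Apart from Slfn2, these Schlafen and guanylate-binding genes were named after their values were seen.

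Genes of the immunoproteasome, which cuts peptides for display on MHC class I, were lowest on p53 KO, the array where Rsad2 was highest. Psmb8 had signals of 1848, 1580 and 2502, Psmb9 had 1736, 934 and 1589, and Psmb10 had 1107, 882 and 1405 on WT, p53 KO and DKO. None was 2-fold apart on any pair of arrays. These genes were chosen after their values were seen.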
